A study of Mus musculus with 27 samples.

Results

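The miR-181 family was followed in the left ventricle of mice with and without pressure overload. All 4 members with a main entry in the deposited miRNA table, listed there as mmu-miR-181a, mmu-miR-181b, mmu-miR-181c and mmu-miR-181d, were taken, whatever their counts, out of 421 miRNAs in the table. All 4 passed the filter on low counts, which left 262 miRNAs for the tests. The family was selected on its counts, scaled by library size, in these same 16 small RNA libraries and 4 groups, so its members' levels and fitted changes are given as descriptions and carry no p-value. By library totals, mmu-miR-181c was lower in TAC than in sham hearts of both genotypes with no overlap, as were 1.53% of the miRNAs in WT and 7.63% in caPI3Kalpha hearts, whereas the other 3 members overlapped in both. After TMM scaling (trimmed mean of M values, which sets the bulk of miRNAs equal between libraries), mmu-miR-181a was lower with no overlap in WT hearts too. By library totals mmu-miR-181d had its highest group mean in caPI3Kalpha TAC hearts, above the next group by more than the SD of either. The ranges of these groups overlapped, and with TMM scaling their means, 413 and 399 CPM, differed by less than the larger SD.

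MicroRNAs guide Argonaute proteins to messenger RNAs that pair with the seed, the stretch of bases near the 5′ end, and lower the stability or translation of those messengers. The miR-181 family is best known from lymphocyte development, vascular endothelium and the stress response of several tissues. In the rat heart miR-181c has been described in mitochondria, where it was reported to act on the message of a subunit of cytochrome c oxidase (complex IV of the respiratory chain).

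The hearts came from adult FVB mice and were sampled 7 days after surgery. The groups were caPI3Kalpha mice with TAC, caPI3Kalpha mice with a sham operation, WT mice with TAC and WT mice with a sham operation. TAC (transverse aortic constriction) narrows the aorta and loads the left ventricle, and a sham operation leaves the aorta open. The labels call the caPI3Kalpha genotype a PI3Kalpha mutant; the name stands for constitutively active PI3Kalpha, a phosphoinositide kinase of growth signalling held in its switched-on state. The promoter of the transgene is not given in the sources used here. Small RNA libraries were made from 4 caPI3Kalpha TAC, 3 caPI3Kalpha sham, 5 WT TAC and 4 WT sham hearts, and 11 of these 16 hearts also had an mRNA library. Each library is 1 numbered heart, so p-values measure the spread between hearts. For the mRNA library WT sham 15 the labels disagree on the animal number, and the number in its title was used.

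The 4 mature sequences are shown because they decide what the counts can tell apart. They were matched by name to RefSeq (GRCm38.p6) and are written 5′ to 3′, with the seed (bases 2 to 8) in capitals:
miR-181a: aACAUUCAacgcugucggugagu
miR-181b: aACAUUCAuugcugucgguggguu
miR-181c: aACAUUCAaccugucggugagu
miR-181d: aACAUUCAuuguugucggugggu
All 4 share the seed ACAUUCA, and no other mature mouse miRNA in that table had it. MiR-181a and miR-181c differed by an edit distance of 1, an inserted or deleted base, over lengths of 23 and 22 bases. MiR-181b and miR-181d differed by the substitution C12U, with miR-181b's base first and positions counted from 1 at the 5′ end, and by a length of 24 against 23 bases. The nearest members of opposite pairs were 4 edits apart. The treatment of mismatches, gaps and multiple matches in mapping is not given in the sources used here. An edit distance counts a missing base as 1 step. Position by position, without gaps, miR-181a differs at several bases both from miR-181c and from miR-181b. Without gaps the closest pair is miR-181b and miR-181d, with C12U and a length difference of 1 base. Because the mapping rules are unknown, the split of reads could not be checked for any pair.

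The family comes from 3 clusters of 2 miRNAs each. The mature miR-181a lies at chr1:137966468-137966490 and chr2:38852741-38852763 on the plus strand, with miR-181b behind it at chr1:137966650-137966673 and chr2:38853845-38853868. The copies on chromosome 2 lie within Nr6a1 and the long noncoding RNA gene Nr6a1os in the RefSeq annotation. MiR-181c lies at chr8:84178924-84178945 and miR-181d at chr8:84178759-84178781, both on the minus strand and 142 bases apart. The 2 hairpins of miR-181a are printed to show that the mature sequence, in capitals, is the same in both:
Mir181a-1: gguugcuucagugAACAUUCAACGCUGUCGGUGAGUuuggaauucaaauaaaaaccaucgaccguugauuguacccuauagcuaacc
Mir181a-2: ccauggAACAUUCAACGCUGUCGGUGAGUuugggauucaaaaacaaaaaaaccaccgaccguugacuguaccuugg
A count of mature miR-181a therefore sums both loci, as does a count of miR-181b, whereas miR-181c and miR-181d each have 1 locus.

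Counted miRNA reads ran from 3114229 to 7676588 per library, and levels are given as CPM, the count of a miRNA scaled to a common total of counted miRNA reads. Pik3ca, which encodes the subunit carried by the transgene, had 110.5 and 101.3 RPKM (reads scaled to transcript length and to library size) in caPI3Kalpha TAC hearts and 115.4 and 195.0 RPKM in caPI3Kalpha sham hearts, against 5.3 to 8.9 RPKM in the 7 WT hearts, so the genotype labels held in every mRNA library. Some library features that the labels do not explain stood beside the groups. The small RNA columns come in a form with a space and a form without a space in the name, 8 libraries of each, and both forms occur in every group. The mRNA libraries fell into a first set with all 4 caPI3Kalpha libraries, WT TAC 1 and WT sham 6, and a second set with WT TAC 17 and 19 and WT sham 7, 13 and 15. Ventricular cardiomyocyte markers were present in all hearts, at a summed 15877.6 to 20834.6 RPKM.

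MiR-181a carried most of the family's reads. The family took between 2.13% and 3.73% of the counted reads of a library, and miR-181a made up 76.0% to 84.5% of the family. MiR-181a ranked between 8 and 14 among all miRNAs by count, miR-181c between 25 and 35, miR-181b between 47 and 67 and miR-181d between 67 and 83. The lowest count of any member was 919 reads, for miR-181d in WT TAC 2, with a 95% exact Poisson interval from 861 to 980 reads. PCR reads without molecular identifiers are not independent molecules, so such intervals cover counting error only.

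MiR-181c was lower in TAC than in sham hearts of the same genotype. Its level was 4329, 4100, 4037 and 4351 CPM in caPI3Kalpha TAC hearts 8, 9, 11 and 211, and 4662, 4891 and 4574 CPM in caPI3Kalpha sham hearts 5, 8 and 14. It was 3903, 3897, 3694, 3775 and 4062 CPM in WT TAC hearts 1, 2, 17, 19 and 20, and 4917, 5075, 4415 and 4208 CPM in WT sham hearts 6, 7, 13 and 15. Every TAC heart was below every sham heart of its own genotype. Across genotypes the ranges touched, since caPI3Kalpha TAC 8 and 211 were above WT sham 15. In WT TAC against WT sham 1.53% of the 262 miRNAs were lower with no overlap by library totals, and 7.63% were in caPI3Kalpha TAC against caPI3Kalpha sham. With TMM scaling these shares were 8.02% and 12.6%, of 21% and 19.8% separated in either direction, and miR-181a joined miR-181c in WT hearts. That separation must hold in any subset of the hearts, so its presence within each form of column name is no further check. Without a space the WT TAC hearts reached 3903 CPM and the WT sham hearts began at 4917 CPM. With a space these bounds were 4062 and 4208 CPM. In caPI3Kalpha hearts the highest TAC and lowest sham values were 4351 and 4662 CPM without a space, and 4329 and 4574 CPM with one.

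**Figure D1:**
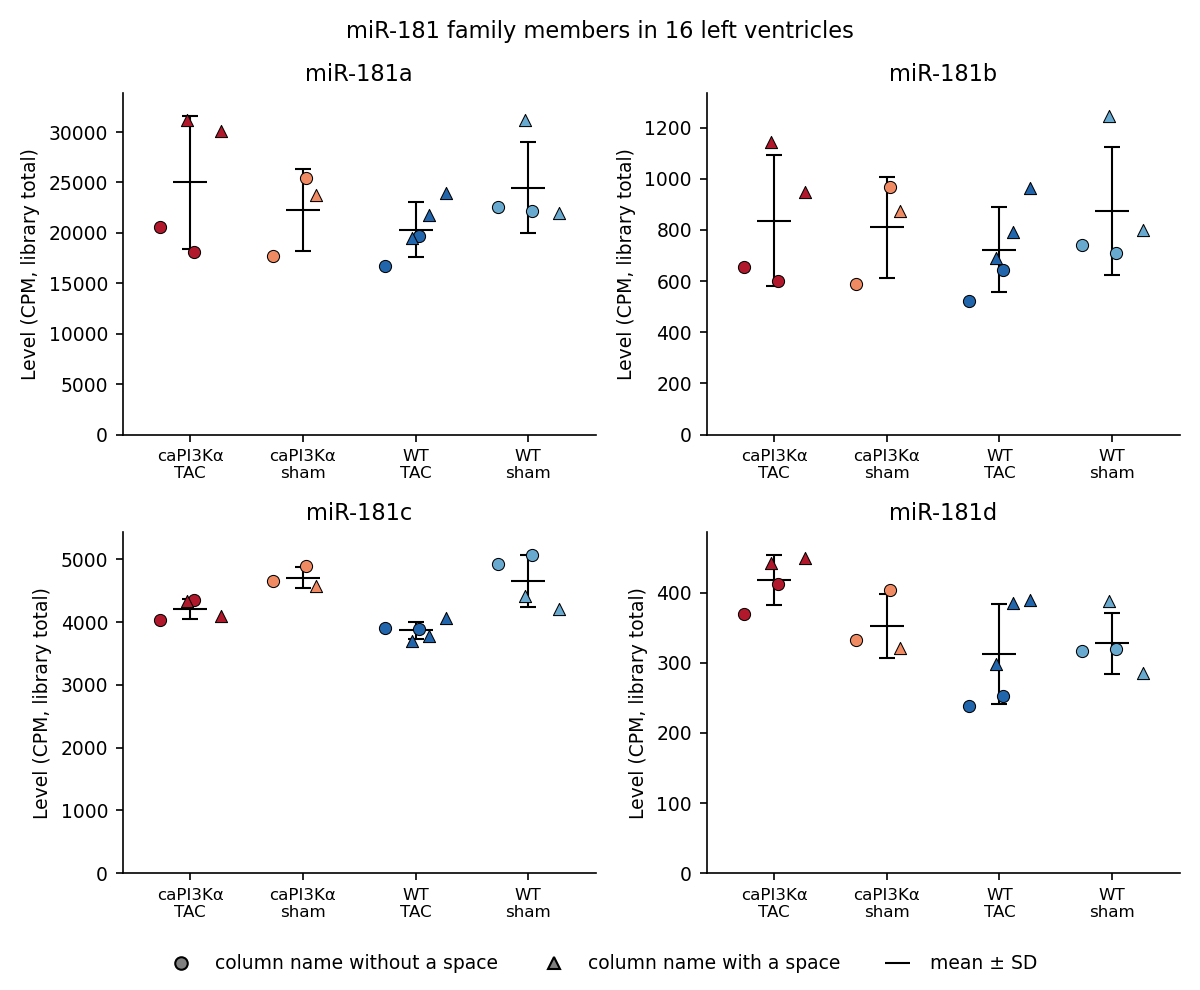
Level of each miR-181 member in CPM (vertical axes, from 0) in the 16 small RNA libraries, by group, with circles and triangles for the form of the column name and bars for the mean ± SD. For miR-181c the WT TAC hearts lie between 3694 and 4062 CPM and the WT sham hearts between 4208 and 5075 CPM; for miR-181a and miR-181b the spread within a group is wider than the gaps between groups.

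The order of the group means differed from member to member. For miR-181c the means were 4204 ± 159 CPM in caPI3Kalpha TAC (SD, n = 4), 4709 ± 163 in caPI3Kalpha sham (n = 3), 3866 ± 140 in WT TAC (n = 5) and 4654 ± 409 CPM in WT sham hearts (n = 4). By level the order was caPI3Kalpha sham, WT sham, caPI3Kalpha TAC and WT TAC. The 2 sham groups differed by less than the larger SD of the pair, and each other neighbouring pair by more. TMM scaling moved the means to 5320 CPM in caPI3Kalpha sham, 3396 CPM in WT TAC and 5068 CPM in WT sham hearts, and kept the absence of overlap in both genotypes.

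MiR-181d, made from the same strand and cluster as miR-181c, followed another order. It had 442, 449, 370 and 413 CPM in caPI3Kalpha TAC hearts 8, 9, 11 and 211, 333, 404 and 321 CPM in caPI3Kalpha sham hearts 5, 8 and 14, 239, 253, 299, 385 and 390 CPM in WT TAC hearts 1, 2, 17, 19 and 20, and 317, 320, 388 and 285 CPM in WT sham hearts 6, 7, 13 and 15. The means were 418 ± 35.8 CPM in caPI3Kalpha TAC, 352 ± 45.0 in caPI3Kalpha sham, 313 ± 71.3 in WT TAC and 328 ± 43.1 CPM in WT sham hearts. By level the order was caPI3Kalpha TAC, caPI3Kalpha sham, WT sham and WT TAC. Only the step between the 2 highest of these groups was larger than the larger SD of its pair, and their ranges overlapped. With TMM scaling their means were 413 ± 38.2 CPM in caPI3Kalpha TAC and 399 ± 69.7 CPM in caPI3Kalpha sham hearts. That step was smaller than the larger SD. The caPI3Kalpha TAC and WT TAC ranges overlapped by library totals, through WT TAC 19 and 20 and caPI3Kalpha TAC 11, and did not overlap after TMM scaling. MiR-181a and miR-181c did not overlap there either after TMM scaling, and 3.82% of miRNAs were higher with no overlap by TMM, against 1.91% by totals. No member separated the caPI3Kalpha sham from the WT sham hearts, where 1.53% of miRNAs did by totals and 1.15% with TMM.

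MiR-181a and miR-181b, the products of the shared clusters, moved together and separated no groups by library totals. MiR-181a averaged 25003 ± 6603 CPM in caPI3Kalpha TAC hearts, 22286 ± 4084 CPM in caPI3Kalpha sham hearts, 20306 ± 2726 CPM in WT TAC hearts and 24474 ± 4500 CPM in WT sham hearts. MiR-181b averaged 837 ± 256 CPM in caPI3Kalpha TAC hearts, 811 ± 198 CPM in caPI3Kalpha sham hearts, 722 ± 166 CPM in WT TAC hearts and 875 ± 250 CPM in WT sham hearts. No neighbouring pair of group means differed by more than the larger SD for either miRNA. The 2 caPI3Kalpha TAC libraries with a space in the column name held 31226 and 30050 CPM of miR-181a, and the 2 without a space held 20609 and 18126 CPM. Over all groups, miR-181a averaged 25428 ± 4692 CPM in the libraries with a space and 20359 ± 2930 CPM in those without (n = 8 each), whereas miR-181c averaged 4145 ± 303 and 4467 ± 483 CPM.

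Within a library the members can be compared without any scaling. The ratio of miR-181c to miR-181a reads ran from 0.136 to 0.192 in libraries with a space and from 0.192 to 0.264 in libraries without one, so the 2 forms did not overlap, by a margin below the third decimal, whereas the groups overlapped. The ratio of miR-181d to miR-181c reads was 0.0917 to 0.110 in caPI3Kalpha TAC hearts and 0.0701 to 0.0826 in caPI3Kalpha sham hearts, with no overlap. In WT TAC hearts it was 0.0612 to 0.102 and in WT sham hearts 0.0630 to 0.0879, with overlap. The 2 lowest WT TAC values, 0.0612 and 0.0649, were from libraries without a space. By library totals 23.3% of single miRNAs separated caPI3Kalpha TAC from caPI3Kalpha sham hearts in either direction. Ratios of other miRNAs were not examined, and the ratios given here use the counts that selected the family. The ratio of miR-181b to miR-181a stayed between 0.0313 and 0.0403 in all 16 libraries.

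**Figure D2:**
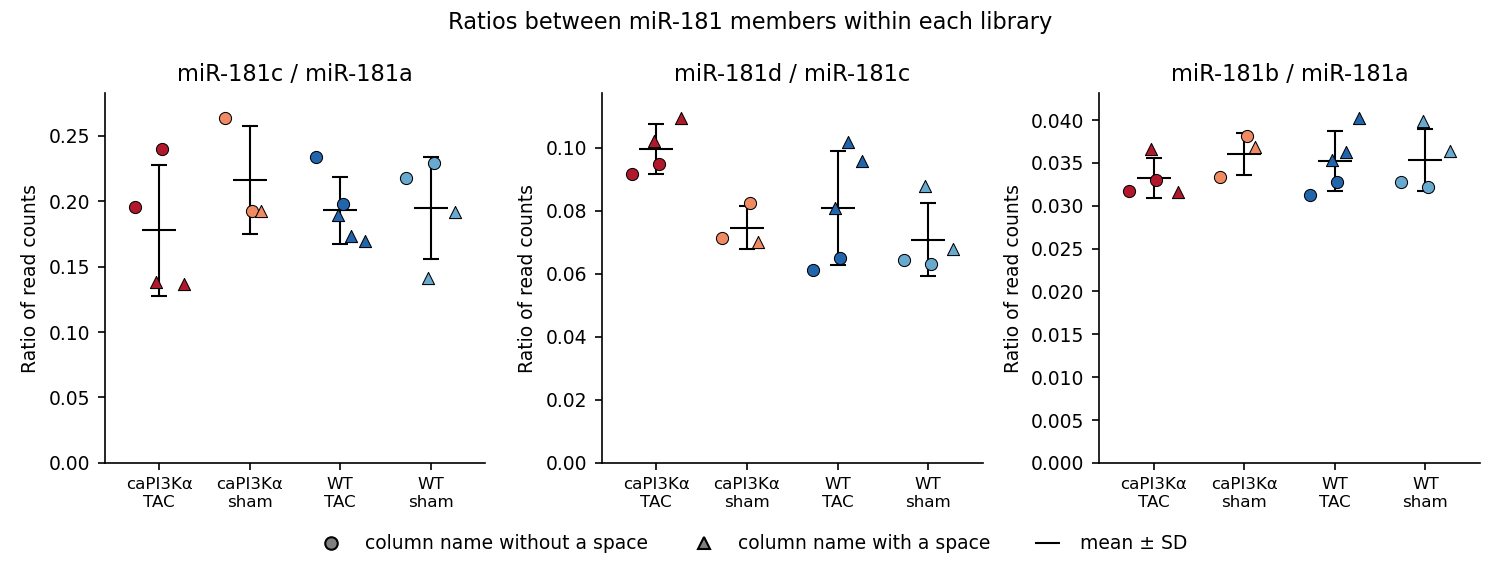
Ratios of read counts between miR-181 members within each of the 16 small RNA libraries (vertical axes, from 0), by group, with circles and triangles for the form of the column name and bars for the mean ± SD. The ratio of miR-181d to miR-181c is at least 0.0917 in caPI3Kalpha TAC hearts and at most 0.0826 in caPI3Kalpha sham hearts, and the ratio of miR-181c to miR-181a is lower in the libraries with a space. By library totals 23.3% of single miRNAs separate caPI3Kalpha TAC from caPI3Kalpha sham hearts.

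Across the 16 libraries, Spearman's rho was 0.956 between miR-181a and miR-181b, 0.347 between miR-181a and miR-181c and 0.200 between miR-181c and miR-181d. Within each form of column name (8 libraries each), it was 0.619 between miR-181a and miR-181c in both forms. These libraries share their totals, their form of column name and their groups, so the values only describe likeness. The miRNAs most like miR-181c among 192 candidates were miR-101a (rho 0.697), miR-192 (0.674), miR-203 (0.629), miR-101b (0.565) and miR-30c (0.562). Those most like miR-181d were miR-25 (0.744), miR-3057-5p (0.665) and miR-151-3p (0.615), followed by miR-181a and miR-181b. After each other, miR-181a and miR-181b had the same neighbours, which were miR-1843-5p (0.824 with miR-181a, 0.897 with miR-181b), miR-128, miR-149 and miR-92a.

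The fitted changes, from edgeR's quasi-likelihood model with TMM factors over all miRNAs, are log2 differences with their standard errors. WT TAC against WT sham gave -0.58 (SE 0.17) for miR-181a, -0.59 (SE 0.22) for miR-181b, -0.58 (SE 0.11) for miR-181c and -0.37 (SE 0.16) for miR-181d. All 4 were below 0. Of all miRNAs 7.25% were called lower at an adjusted p under 0.05 and 20.2% in either direction, and 2 of the 4 members were among them, a count that tests nothing because the same counts selected the family. Leaving out each of the 16 libraries in turn moved the estimate between -0.66 and -0.48 for miR-181a and between -0.64 and -0.50 for miR-181c. By library totals without TMM the changes were -0.27 for miR-181a, -0.28 for miR-181b, -0.27 for miR-181c and -0.07 for miR-181d. The median of all miRNAs in that comparison was 0.27 by totals and -0.04 with TMM, so relative to the median the members were similarly low under both. The split of calls moved as well, with 57 higher and 3 lower by totals against 34 higher and 19 lower with TMM.

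The TAC effect in transgenic hearts, caPI3Kalpha TAC against caPI3Kalpha sham, gave log2 changes of -0.05 (SE 0.19) for miR-181a, -0.18 (SE 0.25) for miR-181b, -0.35 (SE 0.12) for miR-181c and 0.05 (SE 0.19) for miR-181d. Of all miRNAs 10.7% were called and 6.11% were called lower, and 0 of the 4 members were among them. With a term for the form of the column name the estimate of miR-181c was -0.33 (SE 0.09). By library totals miR-181a and miR-181b had the opposite sign, 0.17 and 0.05, while miR-181c stayed below 0 at -0.16. The median of all miRNAs was 0.10 by totals and -0.09 with TMM. The calls were 22 higher and 8 lower by totals, against 12 higher and 16 lower with TMM.

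CaPI3Kalpha TAC against WT TAC gave log2 changes above 0 for the whole family: 0.45 (SE 0.17) for miR-181a, 0.36 (SE 0.22) for miR-181b, 0.29 (SE 0.11) for miR-181c and 0.59 (SE 0.16) for miR-181d. Of all miRNAs 4.2% were called higher and 8.78% lower, and 1 of the 4 members was among the higher ones, which again tests nothing. The estimate of miR-181d was 0.42 by library totals and ran from 0.50 to 0.70 when each library was left out in turn. Within the libraries without a space, with 2 caPI3Kalpha TAC and 2 WT TAC hearts, the change of miR-181d was 0.86 (SE 0.16). Within those with a space, with 2 and 3 such hearts, it was 0.43 (SE 0.18). These are parts of the same counts and no separate check. The median of all miRNAs was -0.19 by totals and -0.04 with TMM. The calls of all miRNAs were 7 higher and 41 lower by totals, against 11 higher and 23 lower with TMM.

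Between the sham groups, caPI3Kalpha sham against WT sham, the changes were -0.08 (SE 0.19), -0.05 (SE 0.26), 0.07 (SE 0.12) and 0.17 (SE 0.19) for miR-181a, b, c and d. In that comparison edgeR called 0 of 262 miRNAs and DESeq2, run on all 421, called 0 as well; 4 and 6 had an unadjusted p under 0.05. The interaction of genotype and operation, the TAC change in caPI3Kalpha hearts minus that in WT hearts, was 0.52 (SE 0.25), 0.41 (SE 0.34), 0.22 (SE 0.17) and 0.42 (SE 0.25). Of all miRNAs 0.763% were called, and 0 of the 4 members were among them. Each group enters 2 of the comparisons between a pair of groups, so their values are not independent.

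**Figure D3:**
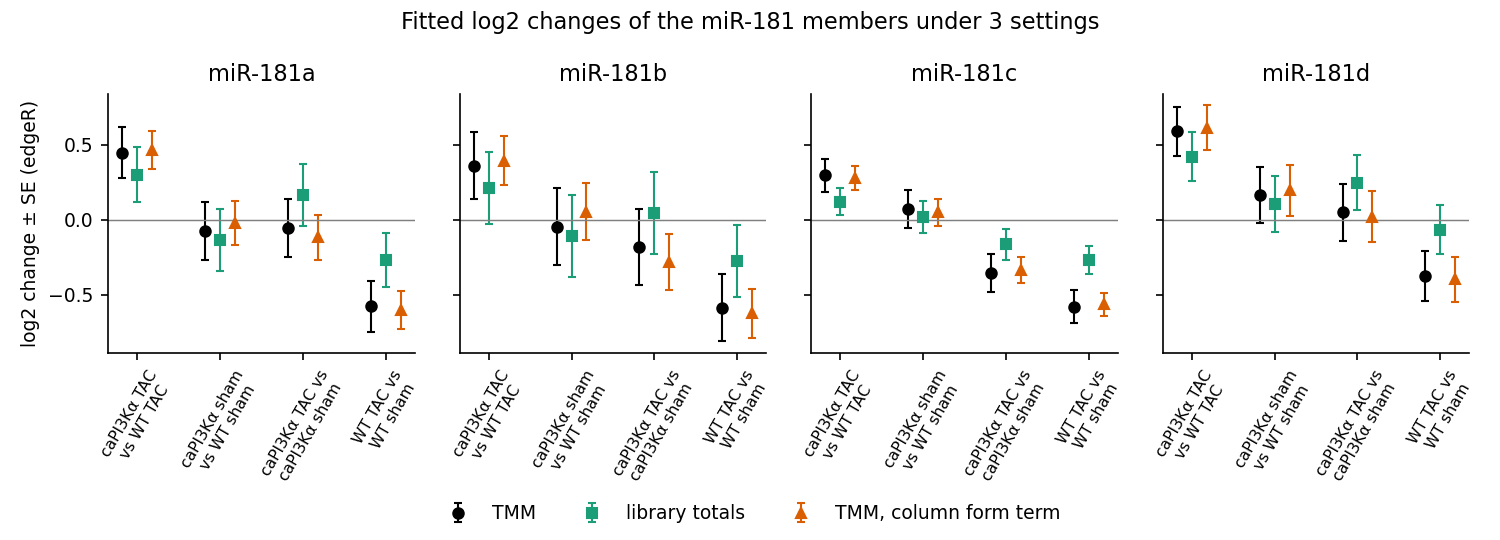
Log2 change ± SE (vertical axes) of each miR-181 member in 4 comparisons, from edgeR with TMM factors (circles), with library totals (squares) and with TMM and a term for the form of the column name (triangles). In WT TAC against WT sham all 12 points are below 0, and in caPI3Kalpha TAC against WT TAC all 12 are above 0.

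The neighbours of miR-181c and miR-181d were read beside them. Mir23a, Mir27a and Mir24-2 lie 29.6 to 30.0 kb away on the opposite strand, and Mir3074-2 lies in the same place on the members' own strand. MiR-23a had a log2 change of -0.09 (SE 0.14), miR-27a of -0.08 (SE 0.19) and miR-24, which has a further locus elsewhere, of 0.02 (SE 0.25) in WT TAC against WT sham. In caPI3Kalpha TAC against WT TAC their changes were 0.07 (SE 0.14), -0.002 (SE 0.19) and 0.46 (SE 0.25), in the same order. In caPI3Kalpha TAC against caPI3Kalpha sham they were -0.03 (SE 0.16), -0.19 (SE 0.22) and 0.45 (SE 0.29). Their groups overlapped in all 4 comparisons between a pair of groups, by totals and with TMM. MiR-23a averaged 1472 ± 130 CPM in WT TAC hearts and 1266 ± 203 CPM in WT sham hearts. MiR-3074-5p had 0 to 6 reads per library, too few to compare.

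The makeup of the tissue differed between the same groups. The 6 macrophage markers summed to 38.9 to 44.6 RPKM in caPI3Kalpha TAC, 37.0 to 51.6 in caPI3Kalpha sham, 77.3 to 104.1 in WT TAC and 31.3 to 42.6 RPKM in WT sham hearts. The 6 fibroblast markers summed to 360.3 to 386.7, 264.6 to 302.9, 703.6 to 802.5 and 282.3 to 377.1 RPKM in the same order of groups. The 7 ventricular cardiomyocyte markers summed to 18371 to 19075, 17531 to 20500, 15878 to 16798 and 19995 to 20835 RPKM in that order. In WT TAC against WT sham 6 of 6 macrophage and 4 of 6 fibroblast markers rose by limma, 1 of 6 endothelial markers rose and 1 of 7 ventricular cardiomyocyte markers fell, where 13.6% of all genes rose and 2.85% fell. In caPI3Kalpha TAC against WT TAC 5 of 6 macrophage, 2 of 6 fibroblast and 1 of 6 endothelial markers fell, where 5.78% of all genes fell. None of 6 T cell and none of 4 B cell markers was listed in the mRNA table, which holds genes of 3 RPKM or more in at least 1 library. The 5 leukocyte miRNAs summed to 832 to 1143 CPM in caPI3Kalpha TAC, 701 to 771 in caPI3Kalpha sham, 1026 to 1325 in WT TAC and 778 to 981 CPM in WT sham hearts, and the 5 muscle miRNAs to 65563 to 77444, 88015 to 99287, 78988 to 92913 and 84796 to 98626 CPM. The red cell miRNAs summed to 53.8 to 2285 CPM in caPI3Kalpha TAC (median 1745), 64.5 to 652 in caPI3Kalpha sham, 111 to 650 in WT TAC (median 162) and 99.3 to 751 CPM in WT sham hearts, and 1 of 2 listed was called higher in caPI3Kalpha TAC against WT TAC. Summed red cell messengers reached 652.1 RPKM and summed atrial messengers 54.9 RPKM in caPI3Kalpha TAC hearts, against at most 171.7 and 6.0 RPKM in WT TAC hearts, and none of either passed. The 2 endothelial miRNAs summed to 50853 to 69763 CPM in caPI3Kalpha TAC and 26478 to 58652 CPM in caPI3Kalpha sham hearts. Their sums were 40804 to 56025 CPM in WT TAC and 32566 to 54759 CPM in WT sham hearts. In WT TAC against WT sham 1 of 2 endothelial and 1 of 5 muscle miRNAs were called lower, where 7.25% of all miRNAs were. There 1 of 5 leukocyte miRNAs was called higher, where 13% were. The part of this makeup in the miR-181 levels was not tested. In whole ventricle, fewer cells of a type and less RNA per cell cannot be told apart.

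The rule that chose the members did not use the mRNA values. The gene lists below were chosen with earlier results of these data known, so their calls and p-values are no independent support. The macrophage and fibroblast marker sums given above differed between the same groups, and their part in the messenger results was not tested. Messengers that have been described as targets of a miR-181 member were examined first. Of 28 on the list, 16 were in the mRNA table; Bcl2 was among those not listed. In WT TAC against WT sham 2 of the 16 rose, Birc6 and Cyld, and 0 fell, where 13.6% of all 8987 genes rose and 2.85% fell by limma at an adjusted p under 0.05. The median log2 change of the list was 0.22, beside 0.17 over all genes. Birc6, a ubiquitin ligase that restrains apoptosis, had 5.8, 7.2 and 7.6 RPKM in WT TAC hearts 1, 17 and 19, against 4.4, 4.2, 4.1 and 4.4 RPKM in WT sham hearts 6, 7, 13 and 15. Of all genes 18.9% were higher with no overlap in that comparison. The Birc6 groups did not overlap, so the WT TAC hearts were necessarily higher in both mRNA library sets. The log2 change was 0.62 (SE 0.13, limma adjusted p = 0.00868), and Birc6 passed under every alternative run, with adjusted p of at most 0.0443.

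Cyld, a deubiquitinase that restrains NF-kappaB signalling, had 4.7, 6.6 and 7.8 RPKM in WT TAC hearts 1, 17 and 19 and 3.5, 4.3, 4.6 and 4.4 RPKM in WT sham hearts 6, 7, 13 and 15. Its log2 change was 0.53 (SE 0.16, limma adjusted p = 0.0476). That call was lost after centring each library on its median (0.34, adjusted p = 0.209) and without any library but WT TAC 1, with adjusted p from 0.0676 to 0.171. Of the list's other members Prox1, a transcription factor, had a log2 change of 0.38 (adjusted p = 0.153), and Mcl1, an anti-apoptotic protein of the Bcl2 family, 0.27 (0.213). Hspa5, a chaperone of the endoplasmic reticulum, had -0.23 (0.164), Timp3, an inhibitor of metalloproteinases, -0.37 (0.168), and Sirt1, a deacetylase, 0.03 (0.950). None of these passed.

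In caPI3Kalpha TAC against WT TAC 1 of the 16 fell, Birc6, and 0 rose, where 5.78% of all genes fell and 0.746% rose. Of all genes 36.2% were lower with no overlap in that comparison. Birc6 had 3.8 and 3.5 RPKM in caPI3Kalpha TAC hearts 11 and 211, below all 3 WT TAC hearts. The log2 change was -0.82 (SE 0.15, limma adjusted p = 0.0189). The call was lost without caPI3Kalpha TAC 11 or 211 or WT TAC 17 or 19, with adjusted p from 0.0643 to 0.147. Both caPI3Kalpha TAC libraries were in the first mRNA set, in which WT TAC had 1 heart, at 5.8 RPKM. The list's median log2 change was -0.41, beside -0.18 over all genes, and Mcl1 (-0.58, adjusted p = 0.0577), Cyld (-0.54, 0.0952), Xiap (-0.66, 0.119) and Kpna4 (-0.65, 0.139) did not pass. A term for the library set, drawn from these same mRNA values, brought the list's median to -0.19, beside -0.14 over all genes. Cyld was then at -0.25, Mcl1 at -0.34, Xiap at -0.19, Kpna4 at -0.17 and Sirt1 at -0.17. Fits with that term only describe, so no p-value is given for them here. Without that term Sirt1 had -0.60 (0.144), Hspa5 -0.29 (0.146) and Timp3 -0.15 (0.604).

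**Figure D4:**
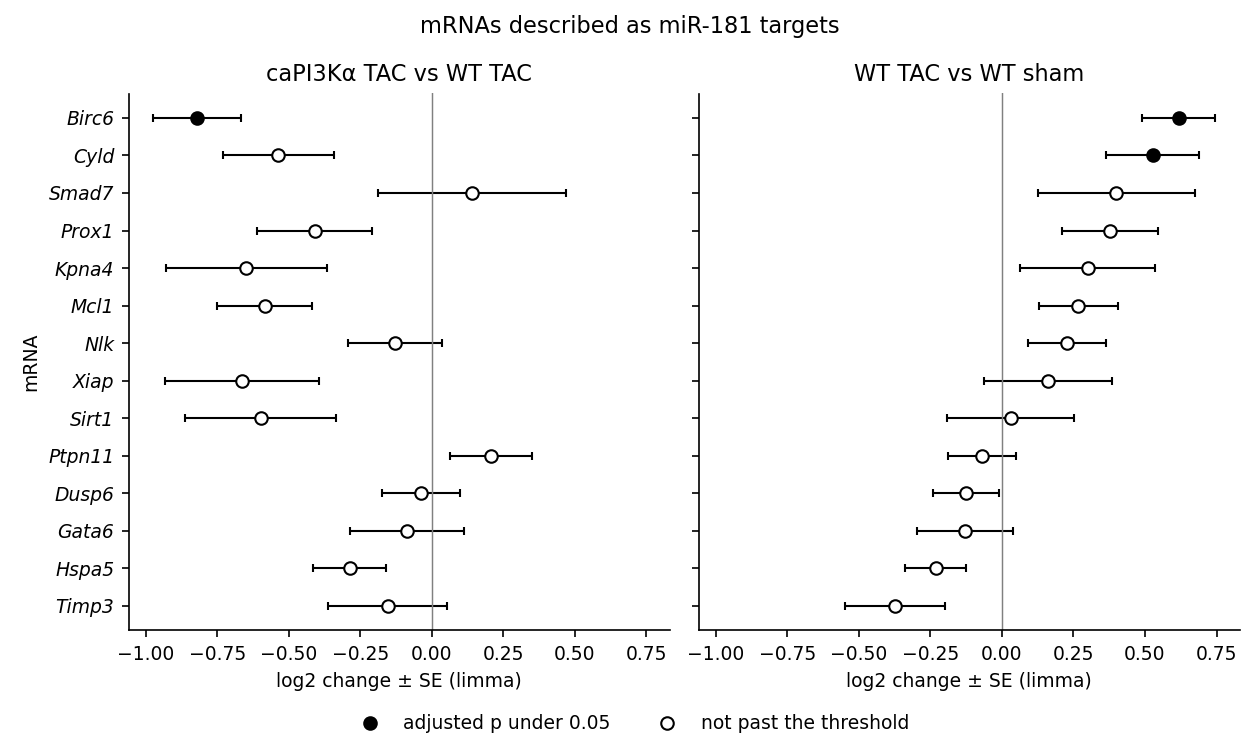
Log2 change ± SE (horizontal axes, limma on log2 of RPKM + 0.5) of the messengers described as miR-181 targets that are reported here in caPI3Kalpha TAC against WT TAC (left) and WT TAC against WT sham (right), with filled points for an adjusted p under 0.05. Birc6 is filled in both panels, at -0.82 and 0.62, and Cyld on the right at 0.53.

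In caPI3Kalpha TAC against caPI3Kalpha sham no listed target passed, and neither did any of the 8987 genes by limma, with 454 at an unadjusted p under 0.05. In caPI3Kalpha sham against WT sham no listed target passed and 1 gene did (0.0111%), and in the interaction no listed target passed, where 0.312% of genes did. The caPI3Kalpha groups have 2 mRNA libraries each, and all are in the first set. Centring on library medians, which lowered the median of all genes in WT TAC against WT sham to -0.02, left 1 listed target higher, Birc6, and 1 lower, Hspa5 (-0.42, adjusted p = 0.0223), and the list's median at 0.03.

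Complex IV was read because of the report on miR-181c in heart mitochondria; the mitochondrially encoded subunits, mt-Co1 among them, were not listed in the table, so 15 nuclear subunits of a list of 18 were measured. In WT TAC against WT sham 1 of the 15 fell, Cox7a1, and 0 rose, where 2.85% of all genes fell and 13.6% rose. Of all genes 4.65% were lower with no overlap in that comparison. Cox7a1, the heart and muscle form of a small subunit, had 399.0, 343.7 and 381.1 RPKM in WT TAC hearts 1, 17 and 19. Cox7a1 had 611.8, 527.9, 526.0 and 620.7 RPKM in WT sham hearts 6, 7, 13 and 15, with no overlap. Its log2 change was -0.61 (SE 0.11, limma adjusted p = 0.00418), and it passed under every alternative run. Cox4i1 (-0.27, adjusted p = 0.0581), Cox5a (-0.32, 0.0746), Cox6c (-0.26, 0.120), Cox7a2 (-0.27, 0.199) and Cox7b (-0.19, 0.298) did not pass. The median of the list was -0.19, beside 0.17 over all genes, and all 15 estimates were below 0. After centring 5 of the 15 fell, where 610 of 8987 genes did. The set term, drawn from the same values and so only a description, gave 9 lower, where 810 genes were lower.

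None of the 15 subunits passed in caPI3Kalpha TAC against WT TAC, and the median of the list was 0.25, beside -0.18 over all genes. Cox7a1 had 568.6 and 461.4 RPKM in caPI3Kalpha TAC hearts 11 and 211, above the WT TAC hearts, with a log2 change of 0.45 (adjusted p = 0.0580) that passed after centring (0.62, adjusted p = 0.0408). Cox8b (0.89, 0.0884), Cox8a (0.65, 0.115), Cox6a2 (0.61, 0.150), Cox5b (0.47, 0.160) and Cox4i1 (0.21, 0.182) did not pass. With the set term these were 0.31, 0.18, 0.09, 0.09 and 0.11, and the list's median was 0.09. In the first mRNA set Cox6a2 had 741.1 and 801.1 RPKM in caPI3Kalpha TAC hearts and 689.0 RPKM in WT TAC 1, whereas WT TAC 17 and 19, in the second set, had 440.9 and 423.6 RPKM. No subunit passed in the other 3 comparisons.

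Of the 14 genes of miRNA processing and silencing on the list, 13 were measured and 1 rose in WT TAC against WT sham, Eif2c2, the older symbol of Ago2, the Argonaute protein that can cleave a target. As a share, 1 of 13 is below the 13.6% of all genes that rose. Eif2c2 had 6.5, 6.5 and 5.6 RPKM in WT TAC hearts 1, 17 and 19, against 4.7, 4.7, 4.3 and 4.6 RPKM in WT sham hearts 6, 7, 13 and 15. The log2 change was 0.40 (SE 0.12, limma adjusted p = 0.0461). The call was lost after centring (0.21, adjusted p = 0.292) and without any one of 8 of the 11 libraries, with adjusted p from 0.0563 to 0.148. Dicer1, which cuts hairpins to mature miRNAs, had 0.37 (0.0572), Eif2c1, a further Argonaute, 0.32 (0.126), Ran, which carries hairpin export from the nucleus, 0.24 (0.141), and the silencing scaffolds Tnrc6a and Tnrc6b 0.22 (0.180) and 0.25 (0.206). The median of the list was 0.23, beside 0.17 over all genes.

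None of the 13 passed in caPI3Kalpha TAC against WT TAC, and the list's median was -0.30, beside -0.18. Eif2c2 had 4.2 and 4.3 RPKM in caPI3Kalpha TAC hearts 11 and 211. Its log2 change was -0.49 (limma adjusted p = 0.0615), and -0.54 with the set term. Tnrc6b (-0.53, 0.0576), Tnrc6a (-0.37, 0.0884), Dicer1 (-0.40, 0.0910), Eif2c1 (-0.40, 0.116) and Dgcr8 (-0.30, 0.202), which binds hairpins beside Drosha, did not pass either. No member passed in the other 3 comparisons.

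**Figure D5:**
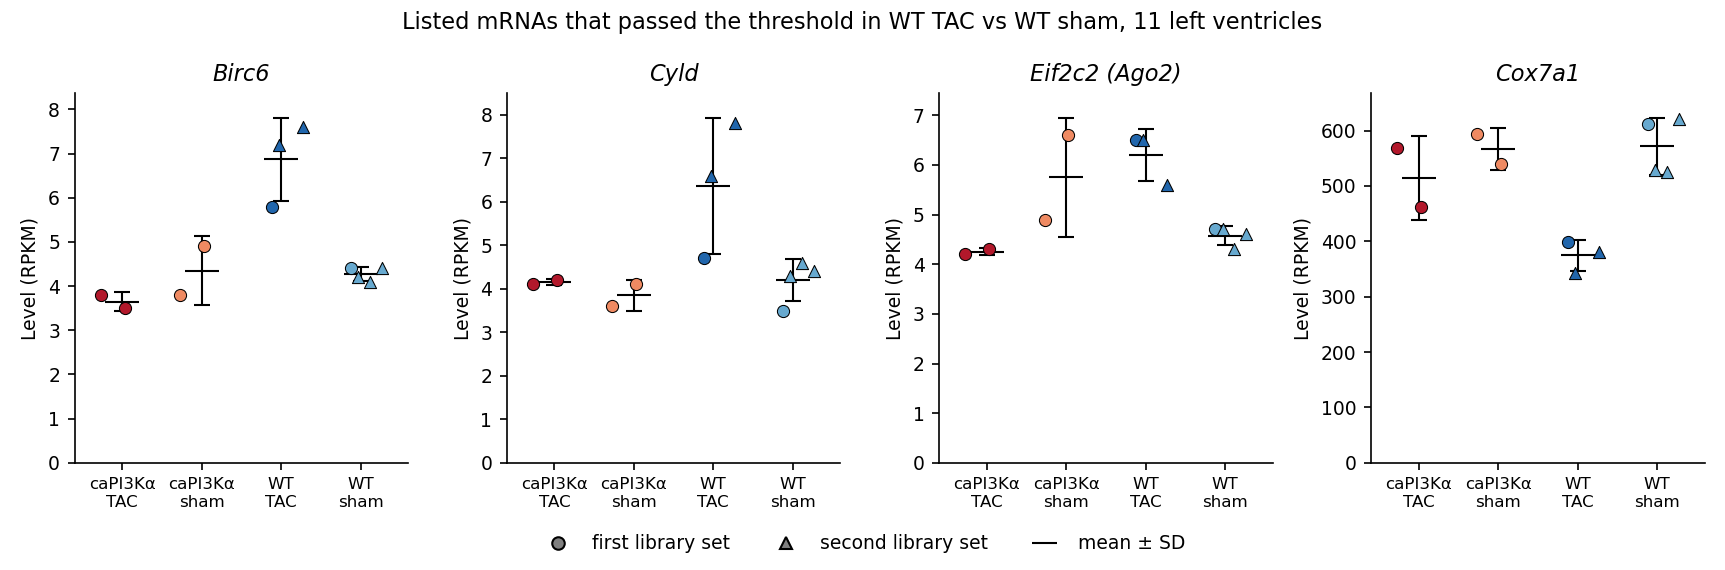
RPKM (vertical axes, from 0) of the 4 listed messengers that passed in WT TAC against WT sham, in 11 hearts by group, with circles and triangles for the first and second mRNA library set and bars for the mean ± SD. Birc6, Cyld and Eif2c2 are higher in all 3 WT TAC hearts than in all 4 WT sham hearts, and Cox7a1 is lower, with WT TAC hearts at 343.7 to 399.0 RPKM. Of all genes 18.9% are higher and 4.65% lower with no overlap in that comparison.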

How the data were processed

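The authors deposited raw read counts on miRBase v.16 miRNAs, per the file headers, and RPKM values of mRNA, per the file headers, for genes of 3 RPKM or more in at least 1 library. The submitters' processing notes list the mouse build mm9 and the tools Bowtie, CASAVA 1.6 and Partek 6.5. RPKM keeps no depth, which is unknown for mRNA. Blank, repeated and error lines were dropped, which left 8987 genes. Of the columns, 0 matched no sample.

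MiRNA counts were fitted with edgeR 4.0.16 (quasi-likelihood, TMM, filterByExpr) and log2(RPKM + 0.5) with limma 3.58.1 (trend), each in 1 model of 4 groups in R 4.3.3. Tests were two-sided with Benjamini-Hochberg adjustment, at 0.05. DESeq2 1.42.0 was an alternative. Fold changes on the log2(RPKM + 0.5) scale understate changes of low genes. The mRNA library sets follow the sign of principal component 1 of the log2 values and are not in the labels. P-values and calls with a term for the set are therefore not valid tests and only describe. Both fits were also run on simulated data with independent noise. The simulation held no effect of column form or library set, so it does not bear on those features.

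The members and lists were chosen with earlier results of these data known. Named were all members, miRNAs within 50 kb, the 5 miRNAs most like each member by rho among those with at least 10 CPM, up to 6 genes of each list with the smallest p in either of 2 comparisons, and a few genes whatever their p; some of these genes are not reported here.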

Additional observations from a re-analysis of the deposited data

Results flagged for a closer look

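In WT sham hearts 1 library stood far from the other 3 for each of 4 values: miR-181a was 31212 CPM in WT sham 13, with the next heart at 22610 CPM, and miR-181b was 1246 CPM in the same library, with the next at 800 CPM. In the mRNA libraries Prox1 was 9.9 RPKM in WT sham 6, with the next at 6.9 RPKM, and Cox6a2 was 906.9 RPKM in WT sham 6, with the next at 531.5 RPKM. Of the 40 groups of values checked these 4 stood apart, and chance flags about 1 in 20 groups. WT sham 6 is the only WT sham heart in the first mRNA set, and without WT sham 13 the log2 change of miR-181a in WT TAC against WT sham was -0.48.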

How the results depend on the processing

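No paired analysis was possible because the compared groups share at most 1 replicate number. The miRNA calls in WT TAC against WT sham (53) were 34 with no filter on low counts and 101 with a term for the form of the column name. In caPI3Kalpha TAC against caPI3Kalpha sham (28) they were 68 with that term and 18 within each form of column name. In caPI3Kalpha TAC against WT TAC (34) they were 64 with that term and 13 within the form with a space. The interaction (2) gave 4 by library totals, 5 by DESeq2, 14 with the form term, 1 without a space and 0 with one. Leaving out each library in turn gave 26 to 58, 6 to 24, 15 to 38 and 0 to 5 in these 4 comparisons. Levels scaled by TMM gave means of 5320 CPM in caPI3Kalpha sham, 3396 in WT TAC and 5068 in WT sham for miR-181c, and 399 CPM in caPI3Kalpha sham for miR-181d.

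For mRNA, a term for the library set gave 3785 calls in WT TAC against WT sham (1481), 93 in caPI3Kalpha TAC against caPI3Kalpha sham (0) and 607 in the interaction (28). The sets were drawn from the same mRNA values, so counts with that term are descriptions only. Centring on library medians gave 269 in caPI3Kalpha TAC against WT TAC (586) and 12 in the interaction. The calls split as 561 higher and 610 lower after centring against 1225 and 256 before it in WT TAC against WT sham, and as 130 and 139 against 67 and 519 in caPI3Kalpha TAC against WT TAC. Leaving out each library gave 729 to 1994 in WT TAC against WT sham, 0 to 2 in caPI3Kalpha TAC against caPI3Kalpha sham, 1 to 1824 in caPI3Kalpha sham against WT sham, 23 to 3269 in caPI3Kalpha TAC against WT TAC and 3 to 66 in the interaction. The 1824 came without WT sham 6, the 3269 without WT TAC 1, and the 23 and 25 without caPI3Kalpha TAC 11 and 211, where the lone library left is assumed to vary like the other groups.

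With the set term the target list had 6, 2 and 1 calls in WT TAC against WT sham, caPI3Kalpha TAC against WT TAC and the interaction, and the miRNA machinery list 6, 1 and 1. The complex IV list had 9 calls in WT TAC against WT sham with the set term and 5 after centring, and 1 after centring in caPI3Kalpha TAC against WT TAC; the machinery list had 0 after centring in WT TAC against WT sham. Leaving out each library gave 1 to 4 target calls in WT TAC against WT sham, 0 to 8 in caPI3Kalpha TAC against WT TAC and 0 to 5 in caPI3Kalpha sham against WT sham. It gave 1 to 3, 0 to 7 and 0 to 6 complex IV calls, and 0 to 2, 0 to 7 and 0 to 1 machinery calls, in the same 3 comparisons. The highest counts in caPI3Kalpha TAC against WT TAC came without WT TAC 1, and those in caPI3Kalpha sham against WT sham without WT sham 6. Sirt1 in WT TAC against WT sham turned to -0.16 after centring and ran from -0.17 to 0.19 over the fits that left out a library, below 0 without WT sham 6, WT TAC 17 or WT TAC 19. Timp3 in caPI3Kalpha TAC against WT TAC turned to 0.0094 after centring, 0.022 with the set term, and ran from -0.39 to 0.081 over the fits that left out a library, above 0 without caPI3Kalpha TAC 11. The cause of these shifts was not tested. With 2 to 5 hearts a group and an unknown mRNA depth, the number of hearts limits the precision.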
